A study of Mus musculus with 4 samples.

Results

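The cytosolic ribosome is built from ribosomal RNA and a fixed set of ribosomal proteins, each present once or, for the acidic stalk proteins, more than once per particle. The genes that encode them lie scattered over the genome and are among the most highly expressed genes of growing cells. Their mRNAs begin with a run of pyrimidines, the terminal oligopyrimidine (TOP) motif, through which the kinase mTORC1 controls their translation. In the intestine, ribosomal protein mRNAs are known to be abundant in dividing crypt cells and less so in differentiated enterocytes.

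Members were taken by gene symbol. Symbols starting with Rpl or Rps and a digit, together with Rplp0, Rplp1, Rplp2 and Rpsa, gave 89 of the 24444 genes in the table, after leaving out 7 rows named as pseudogenes by -ps and 10 rows of the Rps6k kinases. The rule itself uses symbols and no measured value. Of the 89, 77 encode the canonical proteins and are called the core genes here, 46 of the large and 31 of the small subunit. Another 11 are paralogs, several of them known for expression in testis or muscle. Of these paralogs, Rpl32l, Rpl37rt and Rps4l are annotated as processed pseudogenes, though their symbols lack -ps. The last, Rps19bp1, encodes a protein that binds Rps19 and is no ribosomal protein itself. In the GRCm38 annotation the core genes lie on 19 chromosomes, 14 of them on chromosome 7 and 4 on X.

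The libraries were labelled as tumours of CT26, a colon carcinoma line of BALB/c mice, which the study grew under the skin of the flank and took at a volume of around 70 mm3. Knockdown replicates 1, 2 and 3 carried a short hairpin RNA against Ppp2r1a, which encodes the scaffold of the phosphatase PP2A, and the 1 control library a scrambled hairpin (CT26-scr). The study describes total RNA from whole tumours, and nothing in the labels ties the knockdown tumours to separate mice. The p-values measure the spread between these libraries, which may be technical. Knockdown replicate 3 and the control carry the same number in their sample descriptions, with no statement of what it marks, and this pair had the smallest chi-square per degree of freedom of all library pairs, 85.5. With a single control, a feature of that library and an effect of the knockdown cannot be told apart.

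Total expected counts (estimated counts per gene) ran from 24726440 to 28950004, and all 77 core genes had enough counts to be tested. Ppp2r1a stood at 40.2, 29.8 and 22.3 TPM (a length-corrected share of transcripts) in knockdown replicates 1 to 3 and at 75.1 TPM in the control. It was lower in each library labelled knockdown, with a log2 fold change of -1.61 ± 0.26 (standard error). The main test, the quasi-likelihood test of edgeR, did not call even Ppp2r1a, whereas DESeq2 did. Transcripts of intestinal epithelium were abundant in every library although the libraries were labelled as tumours of a cell line. Together 24 genes of enterocytes, Paneth cells and goblet cells held 4.91%, 11.1% and 15.3% of TPM in knockdown replicates 1 to 3 and 14.7% in the scrambled control. The lists were not alike. Paneth cell genes summed to 6825, 21549 and 9235 TPM against 10348 TPM, highest in replicate 2. Colonocyte genes, not part of the 24, summed to 2196, 1128 and 312.3 TPM against 565.8 TPM, highest in replicate 1. Where the intestinal transcripts came from could not be settled here, so the labelled tissue itself remains in doubt. In bulk RNA, fewer cells of a type and less RNA per cell cannot be told apart.

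Core ribosomal protein transcripts took a larger share of the RNA in the knockdown libraries than in the control, and the 3 knockdown libraries differed widely among themselves. The 77 genes together made up 11.95%, 8.65% and 5.56% of TPM in knockdown replicates 1, 2 and 3 and 5.05% in the scrambled control. Replicate 1 was thus 2.37 times the control, replicate 2 was 1.71 times and replicate 3 only 1.10 times. The mean of the knockdown libraries was 8.72% ± 3.2 (SD, n = 3), and an exact two-sided permutation test gave p = 0.5, where 1 library against 3 can give no p below 0.25. The knockdown libraries ranged from 5.56% to 11.95%, with the control just below the lowest of them. This design therefore cannot show whether the difference exceeds the variation between libraries.

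Large subunit genes held 6.67%, 4.91% and 3.13% of TPM in the knockdown replicates and 2.81% in the scrambled control. Small subunit genes held 5.29%, 3.74% and 2.42% against 2.25%. The ratio of large to small subunit TPM stayed between 1.25 and 1.31 over the 4 libraries, so the subunits kept nearly the same proportion while the total more than doubled between the control and replicate 1. By expected counts, which are not corrected for length, the core share was 4.98%, 3.59% and 2.20% against 2.01%.

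The share is relative, so any other abundant group moves it. Taking the 24 intestinal genes out of the total left core shares of 12.6%, 9.73% and 6.56% of TPM against 5.92%. These were 2.12, 1.64 and 1.11 times the control, with the libraries in the same order. Other differences in composition remain in that total. Over all tested genes the median TPM ratio to the control was 1.52, 1.24 and 1.04 in replicates 1 to 3. How much of the core difference goes with composition was not tested.

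**Figure D1:**
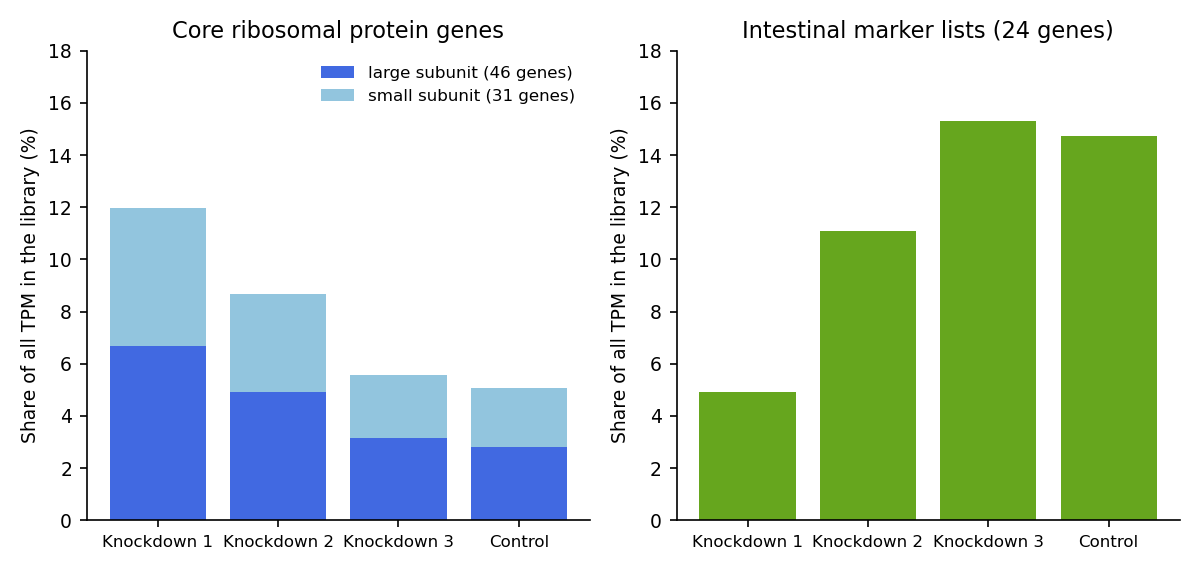
Summed TPM of the 77 core ribosomal protein genes, split by subunit (left), and of 24 enterocyte, Paneth and goblet cell genes (right), each as a percent of all TPM in a library; a bar is 1 library and has no error. The core share is highest in knockdown replicate 1, at 11.95%, and lowest in the control, at 5.05%, while the intestinal lists are lowest in knockdown replicate 1, at 4.91%.

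Other cell types also differed between these libraries. Summed TPM followed the order of the ribosomal protein share for B and plasma cell genes and for neutrophil genes. It did not for enterocyte genes or for genes of dividing cells. Summed TPM of 12 enterocyte genes was 30686, 75432 and 128066 in knockdown replicates 1 to 3 and 118667 in the control, and 7 of the 12 were lower in all 3 knockdown libraries. B and plasma cell genes (6 of 7 listed were in the table) summed to between 833.7 and 8628 TPM in the knockdown replicates and to 280.9 TPM in the scrambled control, highest in replicate 1. On scaled log2 CPM only 3 of those 6 were higher in all 3 knockdown libraries, and 0 were lower in all 3. Each of the 4 neutrophil genes exceeded the control in every knockdown library, and their sums were 699.8, 697.1 and 13.2 TPM against 0.58 TPM. Genes of dividing cells summed to 308.9, 193.5 and 149.8 TPM against 154.3 TPM, and on scaled log2 CPM 4 of 5 were higher and the fifth lower in all 3 knockdown libraries. No listed gene of these 4 types was at 0 in all libraries. The 7 epithelial genes differed less, at 10833 to 12750 TPM in the knockdown replicates and 11225 TPM in the scrambled control. The part of any of these cell types in the ribosomal protein result was not tested.

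Gene by gene, the core genes moved as a narrow band. With trimmed mean (TMM) scaling of the libraries, the fitted log2 fold change, knockdown over control, was above 0 for all 77, with a median of 0.45, an interquartile range of 0.20 and a range of 0.01 to 1.98. Over all 15246 genes tested the median was 0.06 and the interquartile range 0.98, with 8150 above 0. The 5138 genes with a mean log2 CPM (counts scaled by library size) of at least 5 had a median of -0.19 and an interquartile range of 0.59. Of these, 1679 were above 0. The core genes thus spanned a narrower range than either set. The large subunit median was 0.46 and the small subunit median 0.45. No core gene passed the test. Adjusted p ranged from 0.782 to 0.997 in the quasi-likelihood test of edgeR with Benjamini-Hochberg adjustment, against standard errors of 0.34 to 1.85. That test called 0 of 15246 genes (0%), and 556 genes but none of the core genes had an unadjusted p under 0.05.

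Of the 77 core genes, 59 had a log2 CPM above the control in all 3 knockdown libraries, or 76.6%, where 31.8% of all tested genes did. None was lower in all 3. By TPM, which takes no account of the composition of a library, the count was 64 of 77 (83.1%) beside 43.6% of tested genes. The 18 genes that fell short on log2 CPM were held back by replicate 3, where 17 lay below the control, and by Rps27, which lay below it in replicate 2.

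The libraries separated clearly on this measure. The median log2 ratio to the control was 0.70 in replicate 1, with all 77 genes higher, 0.51 in replicate 2, with 75 higher, and 0.10 in replicate 3, with 60 higher. The same ratio over all tested genes had a median of 0.07, 0.04 and 0.01 in those libraries. A core gene's middle value was thus highest in replicate 1 and close to the control in replicate 3. In TPM, the order of replicate 1 over replicate 2 over both of the others was met by 76 of the 77 core genes and by 8004 of the 15246 tested.

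**Figure D2:**
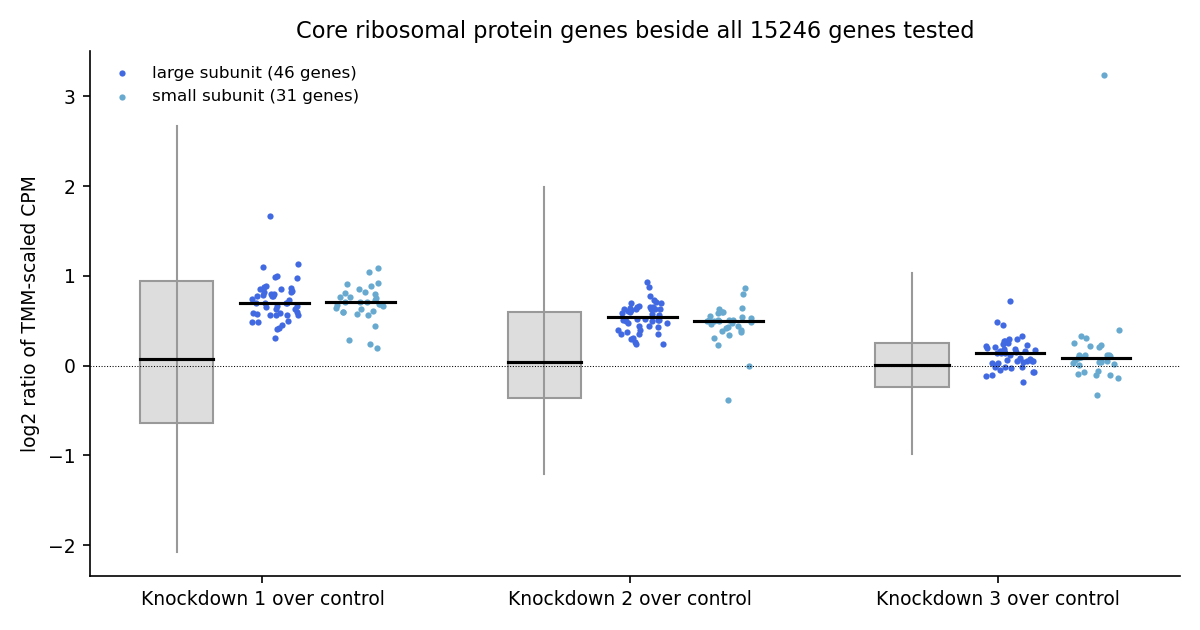
Log2 ratio of TMM-scaled CPM of each knockdown library to the control for the 46 large and 31 small subunit core genes (points, 1 gene each, short line at the median), beside all 15246 genes tested (box from the lower to the upper quartile, line from the 5th to the 95th percentile). Core medians are 0.70, 0.51 and 0.10 in knockdown replicates 1, 2 and 3, and the single point above 3 in replicate 3 is Rps27, whose reads are shared with a copy.

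Among the stalk proteins, which recruit the elongation factors to the ribosome, Rplp0 and Rplp2 were at the upper end of the core genes. Rplp0, the base of the stalk, was at 1956, 1432 and 788.3 TPM in the knockdown replicates and 620.2 TPM in the scrambled control, with a log2 fold change of 0.82 ± 0.61 (standard error here and below). Rplp2 was at 2347, 1631 and 1173 TPM against 810.7 TPM, a log2 fold change of 0.75 ± 0.43. Both were higher than the control in every knockdown library. Rplp1, the partner of Rplp2 in the stalk dimer, was at 3721, 2561 and 1386 TPM against 1435 TPM, with replicate 3 below the control and a log2 fold change of 0.48 ± 0.56.

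Rpl5 and Rpl11 form the 5S particle with 5S ribosomal RNA, and outside the ribosome they are known to bind the p53 ligase Mdm2. Rpl5 was at 901.7, 750.2 and 443.9 TPM against 416.7 TPM, and Rpl11 at 2038, 1603 and 973.4 TPM against 814.0 TPM. Their log2 fold changes were 0.41 ± 0.52 and 0.58 ± 0.47, both within the band of the other core genes.

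Of the other large subunit proteins, Rpl41, the smallest of them, had the highest TPM of all core genes, at 4857, 3726 and 2301 TPM against 1986 TPM, for a log2 fold change of 0.53 ± 0.52. Rpl13a, which in human myeloid cells is known to leave the ribosome after interferon gamma, was at 2092, 1626 and 994.6 TPM against 820.7 TPM, a log2 fold change of 0.60 ± 0.54. These members were higher in each knockdown library, with replicate 3 nearest to the control.

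The lowest log2 fold changes of the large subunit were those of Rpl10, Rpl7, Rpl35a and Rpl38, and Rpl24, described for its known role, was also below the median. Rpl10, a late-joining protein near the peptidyl transferase centre, was at 2056, 1611 and 1189 TPM against 1128 TPM, for a log2 fold change of 0.20 ± 0.46. Rpl7 was at 2404, 1565 and 997.5 TPM against 1095 TPM, a log2 fold change of 0.25 ± 0.56. In replicate 3 Rpl7 lay below the control and Rpl10 just above it. Rpl35a, mutated in some patients with Diamond-Blackfan anaemia, was at 1641, 1161 and 834.9 TPM against 799.8 TPM, a log2 fold change of 0.27 ± 0.40. Rpl38, whose loss in mice disturbs the axial skeleton, was at 1642, 1176 and 840.2 TPM against 794.4 TPM, a log2 fold change of 0.29 ± 0.37. Rpl24, mutated in the belly spot and tail mouse, was at 948.8, 691.9 and 461.5 TPM against 435.6 TPM, a log2 fold change of 0.35 ± 0.40. All of them had higher TPM than the control in replicates 1 and 2, and each of these log2 fold changes was smaller than its standard error.

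In the small subunit, Rps2 and Rpsa had the highest log2 fold changes after Rps27, whose reads are shared with a copy. Rps2, near the entry of the mRNA channel, was at 1797, 1215 and 778.2 TPM against 574.3 TPM, for a log2 fold change of 0.79 ± 0.53. Rpsa, also known as the laminin receptor, was at 1522, 1114 and 655.0 TPM against 504.9 TPM, for a log2 fold change of 0.77 ± 0.60. Both were higher in all 3 knockdown libraries, and least so in replicate 3.

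Rps6, the substrate of the S6 kinases, lay in the middle of the band at 1064, 753.5 and 505.0 TPM against 451.2 TPM, a log2 fold change of 0.44 ± 0.48. Rps3, which lines the mRNA entry and also takes part in DNA repair, was at 888.2, 782.2 and 458.5 TPM against 443.6 TPM, a log2 fold change of 0.35 ± 0.51. Rps19, the most often mutated gene in Diamond-Blackfan anaemia, was at 1346, 911.4 and 521.2 TPM against 482.9 TPM, a log2 fold change of 0.59 ± 0.50. Rps27a, made as a fusion with ubiquitin, was at 2343, 1614 and 1005 TPM against 944.8 TPM, a log2 fold change of 0.46 ± 0.52. These 4 were higher in each knockdown library and near the control in replicate 3.

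Rps23 and Rps14 stood lowest. Rps23, a protein of the decoding centre, was at 2140, 1441 and 989.4 TPM against 1197 TPM. Replicate 3 lay below the control, and the log2 fold change of 0.01 ± 0.45 depended on the scaling. It was -0.03 with median-of-ratios factors, 0.39 with library size alone and 0.28 on log2(TPM + 1), and without replicate 1 it was -0.16. Rps14, encoded in the region lost in human 5q- syndrome, was at 2486, 2139 and 1498 TPM against 1430 TPM, a log2 fold change of 0.20 ± 0.45. Rps12 and Rps29 had the highest mean TPM of the small subunit over the 4 libraries. Rps12 was at 3847, 2754 and 1941 TPM against 1739 TPM, a log2 fold change of 0.38 ± 0.49. Rps29 was at 3398, 2166 and 1344 TPM against 1420 TPM, with replicate 3 below the control and a log2 fold change of 0.34 ± 0.51.

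Relative to each other, the core genes held their levels. When each gene's log2 TPM was taken relative to the library median of the 77, its range over the 4 libraries had a median of 0.22 and was under 0.5 for 72 genes. Spearman's rho of core log2 TPM between libraries ran from 0.96 to 0.98 across genes, which share libraries and gene lengths and are not independent replicates. Among the most constant were Rps15, Rpl37a, Rpl8 and Rpl6, with ranges of 0.08 to 0.10. Rps15, which takes part in the export of the small subunit from the nucleus, was at 1921, 1367 and 843.4 TPM against 751.7 TPM. Rpl8, a protein of the peptidyl transferase region, was at 1477, 1062 and 696.2 TPM against 564.2 TPM. The largest ranges belonged to Rps27 at 4.61, Rpl26 at 0.88, Rpl30 at 0.56, Rps23 at 0.56 and Rps14 at 0.54. Rps23 was high for its rank in the control alone, at 0.99 against 0.43 to 0.51 in the knockdown libraries, whereas Rps14 was low in replicate 1, at 0.71 against 1.00 to 1.25 elsewhere.

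**Figure D3:**
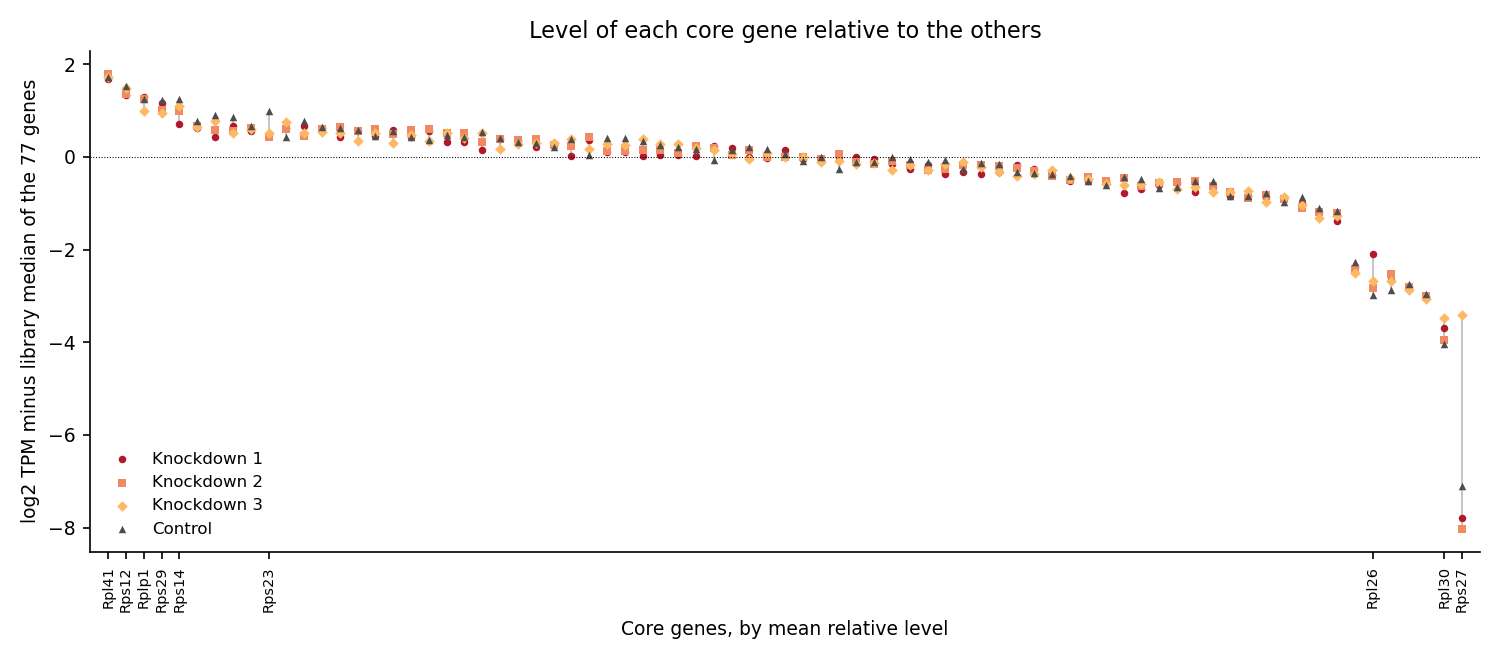
Log2 TPM of each of the 77 core genes minus the median of the 77 in the same library, ordered by the mean over the 4 libraries, with a symbol for each library and a grey line over the range; the 5 genes of highest level and the 5 of largest range are labelled. For 72 of the 77 genes the 4 symbols span less than 0.5; Rps27, at the far right, spreads over 4.61.

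The lowest TPM values went with how the table assigns reads and lengths. Rps15a, at 185.1, 132.3 and 81.7 TPM against 77.1 TPM, had 14479 expected counts in replicate 1, more than Rps15 with 12962. The ratio of its counts to its FPKM implied a gene length of 5057 bases, where the core median was 624 bases. Rpl22, at 216.2, 151.6 and 94.4 TPM against 88.5 TPM, had an implied length of 2120 bases. Its 7093 expected counts in replicate 1 were also fewer than those of Rps15a, so for Rpl22 both a longer assigned transcript and fewer counts go with the low TPM. Their log2 fold changes, 0.44 ± 0.47 for Rps15a and 0.46 ± 0.42 for Rpl22, do not involve that length.

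Rps27, Rpl26, Rpl30 and Rpl34, the other core genes of low TPM, had few counts, and another row of the table held most of the counts of nearly the same sequence. Of the 77 core genes, 12 had at least 1 near-identical copy in the table, 13 copies in all, by alignment of GENCODE M21 transcripts. Rps27rt (chr9:114982366-114982739, minus strand, annotated as protein coding) matched Rps27 (chr3:90212522-90213651, minus strand) at 341 of 341 aligned bases. Gm15772, a processed pseudogene at chr5:3236431-3236868, differed from Rpl26 at 2 of 438 bases. Gm12191, a processed pseudogene at chr11:49678710-49679057, differed from Rpl30 at 1 of 348 bases. Rpl34-ps1, at chr6:71124610-71124963, differed from Rpl34 at 2 of 354 bases. The windows that follow show the single difference between Rpl30 and Gm12191 over their aligned bases, and 1 of the 2 differences for Rpl26 and for Rpl34. Rps27 and Rps27rt have none to show. The differing base is in capitals. Positions count from 1 at the 5′ end of the parent transcript, and the changes are G273A, C224T and T222C.
Rpl30: gtgctgggctacaaGcagactctgaagatg
Gm12191: gtgctgggctacaaAcagactctgaagatg
Rpl26: gttcaggttgttcgCggacactacaaaggc
Gm15772: gttcaggttgttcgTggacactacaaaggc
Rpl34: aaagcacctaaatcTgcatgtggcgtgtgc
Rpl34-ps1: aaagcacctaaatcCgcatgtggcgtgtgc

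With so few differing bases, the split of reads between parent and copy is uncertain. The copy rows held 86.7%, 92.3% and 90.8% of the joint Rpl26 counts in the knockdown replicates and 93.5% in the scrambled control, and 93.0%, 94.0% and 91.8% against 95.1% of the joint Rpl30 counts. Rps27rt held 99.7%, 99.8% and 96.2% of the joint Rps27 counts against 99.6%. Rows of the parent genes therefore show only the remainder. Rps27 had 44.3, 25.7 and 287.4 expected counts in the knockdown replicates and 28.8 in the scrambled control, and the high count in replicate 3 alone gave the largest log2 fold change of the core genes, 1.98 ± 1.85, which was -0.06 without that library.

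Pooling each parent with its copy, an alternative chosen after seeing the data, brought these genes into the band of the others. Pooled Rps27 and Rps27rt were at 532.9, 414.4 and 272.6 CPM against 252.2 CPM, and the log2 fold change was 0.32 ± 0.41 in place of 1.98. For Rpl26 it was 0.38 in place of 1.04, for Rpl30 it was 0.33 in place of 0.86, and for Rpl34 it was 0.34 in place of 0.77. The 4 pools had adjusted p of 0.798 to 0.807 in the quasi-likelihood test of edgeR. The core median was 0.44 with all copies pooled.

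**Figure D4:**
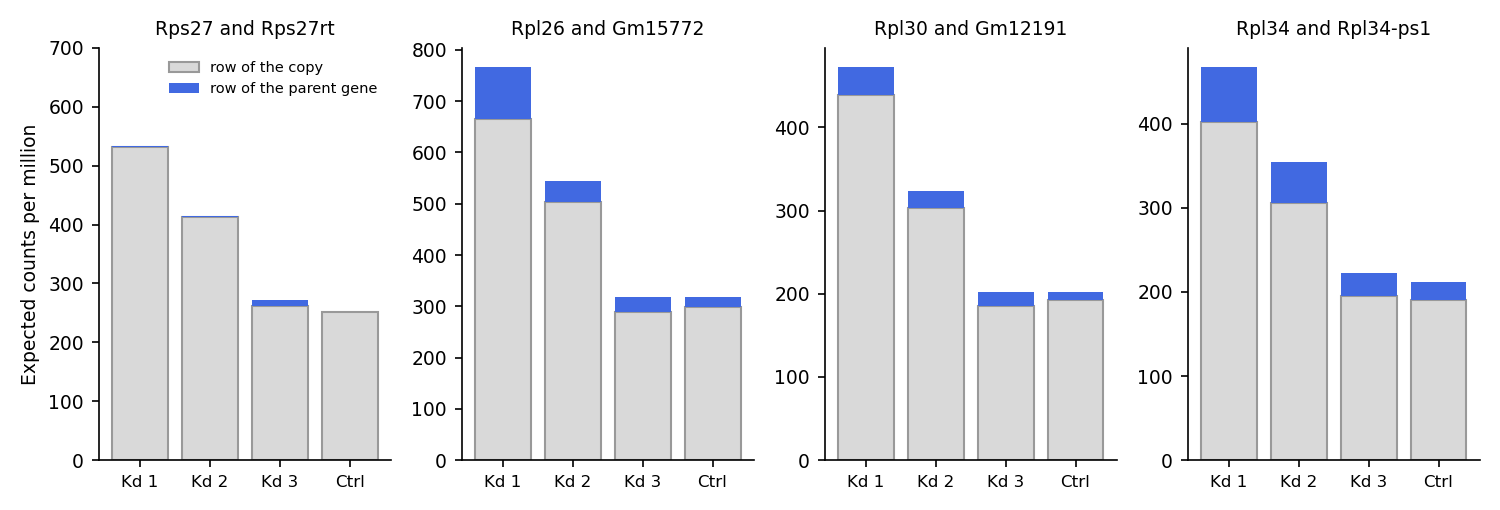
Expected counts as CPM of the library total in the row of the copy (grey) and in the row of the parent gene (blue, stacked on top), for the 4 core genes with most of their reads in a copy; a bar is 1 library and each panel has its own axis from 0. The sums are highest in knockdown replicate 1, as for the other core genes, whereas the blue part is a small and changing remainder.

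Paralogs of the core genes ranged from rows with no count to rows as abundant as the core genes, and Rps4l differed most between the control and the knockdown libraries. Of the 11 paralogs 7 passed the filter on low counts, 6 had a log2 fold change above 0, and their median was 0.31. Rpl22l1, the paralog of Rpl22, was at 550.8, 424.7 and 256.8 TPM against 281.2 TPM, with replicate 3 below the control. It took 32.0%, 34.1% and 33.3% of the joint Rpl22l1 and Rpl22 counts in the knockdown replicates and 36.9% in the scrambled control. The Wilson 95% interval of the control share, 35.6% to 38.2%, did not overlap those of the knockdown libraries, of which the highest upper bound was 35.1%. Knockdown replicates 1 (31.06% to 32.85%) and 2 (33.07% to 35.11%) did not overlap each other either. Such intervals cover counting error only and do not set the control apart from the spread between libraries. For Rpl36al with Rpl36a, the control share of 44.15% lay within the knockdown range, 40.85% to 45.82%.

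Rps27l, a p53 target in human cells, was at 749.9, 611.6 and 561.9 TPM against 408.8 TPM, for a log2 fold change of 0.35 ± 0.31. By TPM replicate 3 was nearest to the control for this gene. Its log2 ratio of TMM-scaled CPM to the control was 0.32, 0.31 and 0.41 in replicates 1 to 3. On that scale replicate 3 was not the nearest, so its place depended on the scaling. Rpl36al, an autosomal retrogene of Rpl36a, was at 1078, 653.8 and 454.6 TPM against 444.3 TPM, a log2 fold change of 0.36 ± 0.43. Rpl7l1 was at 62.1, 44.2 and 36.2 TPM against 31.7 TPM, a log2 fold change of 0.26 ± 0.28. Rpl37rt, which differs from Rpl37 at 1 of 340 aligned bases, was at 18.6, 8.14 and 12.99 TPM against 6.96 TPM, so the split of reads between them is uncertain.

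Rps4l was the only tested member lower in all 3 knockdown libraries. It was at 0.83, 1.79 and 3.31 TPM in knockdown replicates 1 to 3 and at 43.2 TPM in the control, from 11, 26 and 47 expected counts against 640. The knockdown libraries and the control were far apart, and the log2 fold change was -4.64 ± 0.85. With all 4 libraries the quasi-likelihood test of edgeR gave it an adjusted p of 0.782, short of the threshold, and over the alternatives this p ranged from 8.1e-05 to 0.808. DESeq2 gave an adjusted p of 5.73e-04 and called no other member, in a test that called 1.11% of 14359 genes. By edgeR without replicate 2 the adjusted p was 8.1e-05, where 1.07% of genes were called, and without replicate 3 it was 2.57e-04, where 7.33% were. Rps4l was the only member called in each of these 3 tests. Without replicate 1 its adjusted p was 0.267, and no gene was called.

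Rps4l lies at chr6:148354656-148355598 on the plus strand in GRCm38, annotated as a transcribed processed pseudogene related to Rps4x, and within Tmtc1 on the opposite strand (chr6:148232430-148444389). The sources used here do not say whether counting used strand. Tmtc1 was at 1.20, 0.80 and 0.41 TPM against 0.52 TPM, so it was not highest in the control. Rps4x, the partner of Rps4l, had 20641, 16061 and 10918 expected counts against 10402. Rps4l made up 0.053%, 0.162% and 0.429% of the joint counts in the knockdown replicates and 5.80% in the scrambled control (Wilson 95% interval 5.38% to 6.25%). With 1 control library, whether 43.2 TPM belongs to control samples in general or to that library was not tested.

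The tissue-restricted paralogs and the pseudogene Rpl32l were at or near 0. Rpl10l, known from testis, and Rpl32l had no expected count in any library, where 3 counts in a library amount to 0.104 to 0.121 CPM. Rpl39l, also known from testis, had 1 or 2 counts in each library. Rpl3l, the paralog of Rpl3 in skeletal and heart muscle, had 2, 0 and 3 counts in the knockdown replicates and 6 in the scrambled control, under 0.4 TPM throughout. Germ cell genes summed to at most 0.25 TPM, with Prm1, Prm2 and Tnp1 at 0 in every library, and muscle genes to 15.7 to 20.8 TPM in the knockdown replicates and 42.2 TPM in the scrambled control. Rps19bp1, which is no ribosomal protein, was at 31.9, 21.7 and 20.4 TPM against 16.6 TPM, for a log2 fold change of 0.25 ± 0.32.

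**Figure D5:**
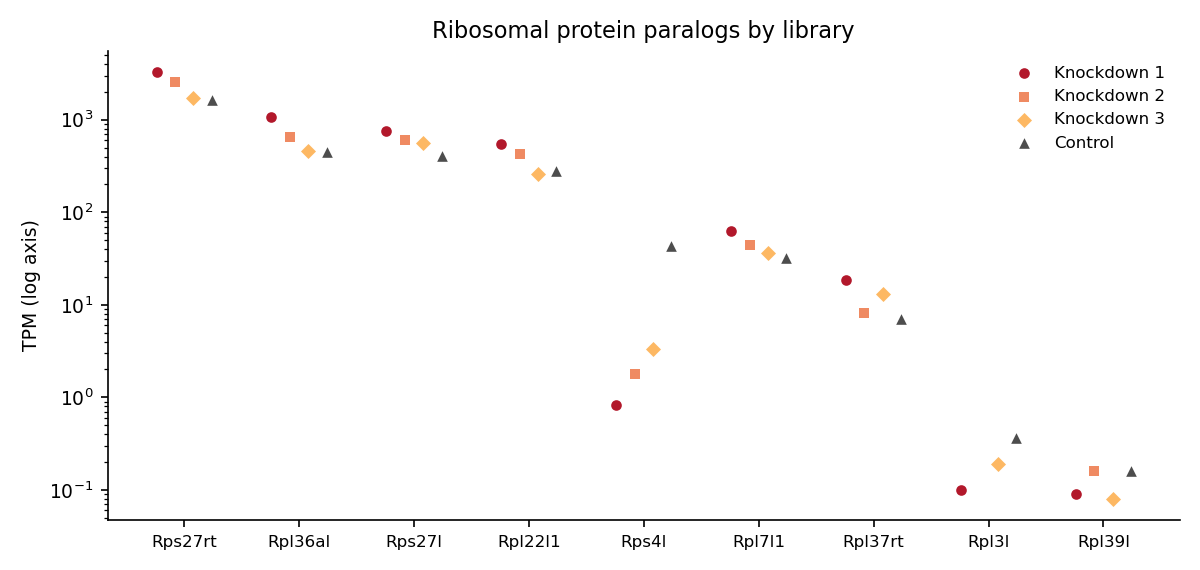
TPM of 9 paralogs of ribosomal protein genes in each library, on a log axis; a symbol is 1 library, and values listed at 0 are not drawn. Rps4l alone shows a control value far above the knockdown libraries, 43.2 TPM against at most 3.31 TPM.

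Sequence features that the choice by symbol did not use were counted in the core promoters. RefSeq windows of 250 bases before and 50 bases from the annotated start (build GRCm38.p6) were matched by symbol for 57 of the 77 core genes, 67 windows in all. A C at the start base followed by at least 4 pyrimidines, the form of the TOP motif, was present in 13 of 67 windows (19.4%) and in 2.51% of all 32851 windows. Within 10 bases of the start such a run was found in 36 core windows (53.7%) and in 30.7% of all windows. The letters CCGGAAG, as bound by factors of the ETS family, were present on either strand in 25 core windows (37.3%) against 8.86%. Their reverse complement itself holds a C followed by 4 pyrimidines, so these searches overlap. TCGCGA was present in 22.4% against 2.5%, GCCATNTT, as bound by YY1, in 22.4% against 6.05%, and TATAAA in 8.96% against 13.6%. Genes with and without a run at the start base had similar median log2 fold changes, 0.45 over 13 genes and 0.47 over 44.

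The 30 bases around the annotated start are printed for 8 core genes described above, 15 before and 15 from the start, to show the runs beside genes without one. The pyrimidine run is in capitals.
Rps15a (chr7:118116133-118116162, minus strand): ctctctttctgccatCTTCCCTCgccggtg
Rpl38 (chr11:114668565-114668594, plus strand): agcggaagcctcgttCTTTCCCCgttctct
Rps6 (chr4:86857353-86857382, minus strand): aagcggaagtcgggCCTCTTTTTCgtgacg
Rplp2 (chr7:141447636-141447665, plus strand): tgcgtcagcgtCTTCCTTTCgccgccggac
Rpl13a (chr7:45128731-45128760, minus strand): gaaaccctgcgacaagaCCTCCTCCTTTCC
Rplp0 (chr5:115559452-115559481, plus strand): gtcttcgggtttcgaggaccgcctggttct
Rpl10 (chrX:74270801-74270830, plus strand): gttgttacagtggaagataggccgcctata
Rpl11 (chr4:136053379-136053408, minus strand): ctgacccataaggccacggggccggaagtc

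In Rps15a and Rpl38 the run begins at the annotated start itself, in Rps6 and Rplp2 before it, and in Rpl13a after it. Rplp0, near the top of the core genes by log2 fold change, and Rpl10, near the bottom, both have no run within 10 bases of their annotated start. Annotated starts differ between sources. In GENCODE, Rpl11 on the minus strand begins at 136053428, before the whole printed window. A window without a run therefore does not show that the mRNA lacks a TOP motif. Whether fold change goes with a run within 10 bases was not tested.

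Ribosomal proteins whose symbols fall outside the choice were measured beside the core genes. Gnb2l1, the older symbol of the scaffold protein Rack1, was at 1224, 996.2 and 582.6 TPM against 547.2 TPM, a log2 fold change of 0.44 ± 0.50. It followed the core order of the libraries. Fau, which encodes the small subunit protein eS30 fused to a ubiquitin-like domain, did not. It was at 1608, 1674 and 1613 TPM against 1525 TPM, nearly level over the 4 libraries, and its log2 fold change of -0.20 ± 0.45 became 0.12 when libraries were scaled by size alone.

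Factors that build ribosomes had a higher median log2 fold change than the core genes, with no test of that difference. Of 55 ribosome biogenesis genes, none passed edgeR's quasi-likelihood test, 53 had a log2 fold change above 0, and the median was 0.86, with medians of 1.30, 0.80 and 0.38 in replicates 1 to 3. Rrp1b, a nucleolar protein of large subunit processing, was at 4.45, 2.09 and 1.22 TPM against 0.52 TPM, the largest log2 fold change of the list at 1.87 ± 0.73. Sbds, which releases the factor Eif6 from the new large subunit, was the lowest at 114.9, 117.6 and 175.6 TPM against 249.8 TPM, a log2 fold change of -1.12 ± 0.52. Calls without replicate 3 rest, like every comparison here, on a single control, and are not read as a result about this list.

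Chaperones that escort single ribosomal proteins had a median log2 fold change of 0.49, with 11 of 13 above 0 and 0 called. Grwd1, a chaperone of Rpl3, was highest at 15.7, 6.47 and 5.09 TPM against 2.35 TPM. RNA polymerase I genes, which transcribe ribosomal RNA, had a median of 0.24, with 16 of 19 above 0. Polr1e was highest at 6.17, 2.89 and 1.61 TPM against 0.77 TPM. Znrd1 was lowest at 48.1, 30.98 and 30.1 TPM against 34.1 TPM, and its log2 fold change of -0.23 became 0.13 with scaling by library size alone. None of the 19 was called.

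Translation factors whose mRNAs also carry TOP motifs had a median log2 fold change of 0.31, with 18 of 20 above 0, and initiation factors of 0.34, with 25 of 28 above 0. Nap1l1, a histone chaperone with a TOP mRNA, was highest of the former at 91.4, 41.8 and 22.9 TPM against 22.1 TPM, and the helicase gene Eif4a2 lowest at 208.4, 191.8 and 229.1 TPM against 242.4 TPM. Eif2b3, a subunit of the guanine nucleotide exchange factor of eIF2, was highest of the initiation factors at 17.8, 9.50 and 4.95 TPM against 2.55 TPM. Eif6 was the lowest of them, at 280.1, 322.8 and 377.8 TPM against 356.2 TPM. None was called with all 4 libraries. Calls without replicate 3 are not read for these lists either.

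The genes of the signalling pathway that acts on the ribosome lay around 0 as a group. The 23 genes of mTORC1, its regulators and LARP proteins had a median log2 fold change of 0.00, with 12 above 0, from Rragc at -0.44 ± 0.31 to Eif4ebp3 at 0.99 ± 0.78. The 10 S6 kinase and RSK genes, whose Rps6k symbols name them for the phosphorylation of Rps6, had a median of -0.19 with 4 above 0. Rps6ka5, a nuclear kinase, was at 1.46, 2.64 and 5.11 TPM against 6.80 TPM. The 12 genes of ribosome quality control and rescue had a median of -0.04, from the GTPase gene Gtpbp2 at -0.33 ± 0.40 to the recycling factor Abce1 at 0.93 ± 0.51. Calls by edgeR's quasi-likelihood test with all libraries were 0 in each list.

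Mitochondrial ribosomal proteins are encoded in the nucleus by separate genes, and their share followed the same order of libraries with smaller ratios. The 77 genes held 0.642%, 0.493% and 0.447% of TPM in the knockdown replicates against 0.418%, or 1.53, 1.18 and 1.07 times the control, where the cytosolic core genes were at 2.37, 1.71 and 1.10 times. Their median log2 fold change was 0.10, with 49 above 0 and 33 higher in all 3 knockdown libraries, beside 77 above 0 and 59 higher in all 3 for the cytosolic core. Over all 15246 genes tested, 8150 were above 0 and 4849 were higher in all 3. The range ran from Mrps31, at 42.4, 49.9 and 49.96 TPM against 62.2 TPM, to Mrps6, at 123.2, 64.2 and 29.6 TPM against 17.1 TPM. The difference between the cytosolic and mitochondrial sets was not tested.

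Among 5058 other genes with a mean log2 CPM of at least 5, the profiles closest to the mean core profile over the 4 libraries, by Euclidean distance of centred log2 CPM, were those of Atf6b, Ddost, Atp2c1, Plcl2 and Tmem164, at distances of 0.02 to 0.05. The mean core profile itself was 0.37, 0.16 and -0.19 in knockdown replicates 1 to 3 and -0.34 in the control. Atf6b was at 39.7, 28.3 and 18.9 TPM against 16.8 TPM, and Ddost, a subunit of the enzyme that attaches glycans in the endoplasmic reticulum, at 199.1, 138.7 and 93.0 TPM against 81.0 TPM. A likeness over 4 libraries rests on few points.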

How the data were processed

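RNA of 3 knockdown libraries and 1 control was analysed by gene, from a table with columns matched to libraries by the sample descriptions (0 columns unmatched). The authors deposited expected counts, TPM and FPKM per gene. Their deposited columns of fold change and posterior probability of equal expression hold their own comparison and were not used. Bowtie 0.12.2 and builds mm8 and mm10 appear in the submitters' processing notes with no role. Which counter and which gene models were used is not given in the sources used here. Positions come from GENCODE M21 (GRCm38), not from the table. TPM and FPKM carry the gene lengths the authors assigned, and how reads of near-identical genes were split is set by their counter.

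Expected counts (5.3% to 5.89% not whole) were rounded, filtered by filterByExpr (minimum count 10), scaled by TMM (factors 0.844 to 1.30) and tested with the quasi-likelihood test of edgeR 4.0.16 in R 4.3.3, two-sided, with Benjamini-Hochberg adjustment over 15246 genes and a threshold of 0.05. Log2 ratios used a prior count of 2, and standard errors were derived from the F statistic. The residual spread came from the knockdown libraries alone. The scripts were tested on simulated data. Alternatives were median-of-ratios (RLE) factors, library size alone, the same without the intestinal lists, no filter, a filter of 50 counts, DESeq2 1.42.0, limma 3.58.1 on log2 CPM, log2(FPKM + 1) and log2(TPM + 1), addition of -ps rows to their parents, pooled copies (added later) and leaving out each knockdown library. All library pairs differed beyond sampling noise (chi-square per degree of freedom 85.5 to 598).

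Copies were found with BLAST 2.17.0 (at least 95% identity, 150 aligned bases and 80% of the copy). Named genes were the core genes with the 5 highest and 5 lowest TPM, the 6 highest and 6 lowest log2 fold changes, the 5 largest and 5 smallest relative ranges, 15 of known role, all paralogs, partners outside the choice by symbol, the extremes of each list and the 5 nearest profiles. Tmtc1, Rps4x and the copies were added after their values were seen. Results that this rule would name for withheld items are not reported here. Members and lists were chosen with earlier results of these data known, 2 paralogs were sorted and the mitochondrial list was defined after the table was seen, and lists are described by counts and medians with no test.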

Additional observations from a re-analysis of the deposited data

How the results depend on the processing

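The core median log2 fold change stayed above that of all tested genes in every alternative run, by 0.28 (without knockdown replicate 1) to 0.55 (without replicate 3). Library size alone gave core, large and small subunit medians of 0.85, 0.86 and 0.84 beside 0.40 for all genes, and library size without the intestinal lists 0.78, 0.79 and 0.77 beside 0.35, so the medians rose with the median of all genes. Genes called numbered 0 by edgeR, 159 by DESeq2 (132 higher and 27 lower), and 0 to 1111 with 1 knockdown library left out, of which 750 were higher and 361 lower without replicate 3, and 161 were called without replicate 2 (most of them higher). The cause was not tested. Leaving out 1 library moved the core median from 0.30 to 0.62, the large subunit median from 0.32 to 0.63, the small from 0.29 to 0.61, and the log2 ratio of mean core share from 0.49 to 1.03 (0.79 with all).

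Among single genes, 981 of the values under alternatives kept direction and side of the threshold, 8 passed it, and 13 changed sign. Rps23 was -0.028 with median-of-ratios factors and with DESeq2, -0.015 by limma on log2 CPM and -0.163 to 0.146 with 1 library left out, lowest without replicate 1. Fau was 0.115, 0.131, 0.097 and 0.065, and Znrd1 0.133, 0.09, 0.058 and 0.075, with library size alone, log2(FPKM + 1), log2(TPM + 1) and library size without intestinal lists. Rps27 was -0.064 to 2.463 with 1 library left out, lowest without replicate 3. No paired analysis was possible because the control shares a number with 1 knockdown library only, replicate 3, the library nearest to it in core share. With 1 control and 3 knockdown libraries, core differences (median 0.45) were about as large as their standard errors (median 0.47). Core genes without split reads were counted deeply in each library, and counting error is small beside those standard errors.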
